A study of Mus musculus with 24 samples.

Results

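Mouse macrophages given isoproterenol were compared with macrophages given IFN-gamma, on 12 of the 24 arrays of the series. Isoproterenol is a drug that activates beta-adrenergic receptors in place of adrenaline, and IFN-gamma is the T cell and NK cell cytokine used as the standard stimulus of classical, or M1, activation. The 6 isoproterenol arrays and the 6 IFN-gamma arrays were chosen by the activator in their labels and matched by experiment number, with 2 arrays per activator in each of 3 experiments. The members of the comparison are all genes of the deposited gene table whose intensity lay above background, 10075 of 18132 (55.6%). All cells were bone marrow-derived macrophages, or BMDM, cultured from the marrow of female Balb/c mice aged 8-10 weeks, for which the labels name no genetic change. They were kept for 24 h with isoproterenol or with IFN-gamma. Medium alone, also for 24 h, serves as a further reference below, and 6 arrays of IL-4-treated cells enter only through the shared estimate of spread. The labels give no dose, and do not say whether the 2 arrays of an experiment came from separate cultures or animals, so that they were averaged and n = 3 experiments per group. The study asked where beta-adrenergic activation lies between the M1 and M2 states of macrophages. The direct comparison of isoproterenol with IFN-gamma gives the differences from cells at the M1 end. It does not by itself place isoproterenol between the states.

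IFN-gamma binds a receptor of the chains Ifngr1 and Ifngr2, whose kinases Jak1 and Jak2 activate factors of the STAT family. These bind gamma-activated sites (GAS) and induce further transcription factors such as Irf1, which act on interferon-stimulated response elements (ISRE) of genes for antigen presentation, chemokines and host defence. Beta-adrenergic receptors couple through Gs to adenylyl cyclase. The cAMP formed activates protein kinase A and the factor CREB, which binds the cAMP response element (CRE).

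In the deposited normalized values, between 9206 and 9273 genes lay above the background limit of 149.3 on each of the 12 arrays. These values were already on a common scale, so the counts do not compare the overall signal of the arrays. Before normalization the median probe intensity ran from 134.6 to 172.2 over the 12 arrays. In each experiment it was higher on both IFN-gamma arrays than on both isoproterenol arrays. The highest was replicate 2 of IFN-gamma experiment 1. The macrophage markers Csf1r, Adgre1, Cd68, Itgam, Spi1 and Lyz2 were above the limit on all 12 arrays. The 2 arrays of a group and experiment correlated at r = 0.9968 or more across all genes tested, except for IFN-gamma in experiment 1, where r was 0.9782. There, replicate 1 correlated with both IFN-gamma arrays of experiment 3 at 0.9959 and 0.9960, and replicate 2 with both of experiment 2 at 0.9960 and 0.9955. The 2 arrays labelled IFN-gamma of experiment 1 thus each resembled another experiment more than their partner, and which of them stands apart cannot be told. Leaving out replicate 1 left 4203 genes changed and leaving out replicate 2 left 4522, against 4643 with both. Slides differed too. Isoproterenol and IFN-gamma shared a slide in experiments 1 and 3 and not in experiment 2.

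Isoproterenol-treated and IFN-gamma-treated macrophages differed across a large part of the measured transcriptome. By limma, at an adjusted p under 0.05, 4643 of 10075 genes (46.1%) differed, 2708 of them higher with isoproterenol (26.9%) and 1935 lower (19.2%). Most of these differences were small, with a median size of 0.41 on the log2 scale. At least 2-fold differences were found in 314 genes that were higher and 369 that were lower, and at least 4-fold differences in 45 higher and 136 lower. The log2 difference, isoproterenol minus IFN-gamma throughout, ran between 4.83 for Lyzl4 and -8.35 for Cxcl9, with a median over all genes of 0.03. The value of Cxcl9 is read against arrays at background, so that its size and its rank before Ly6a (-8.27) are uncertain. Unless medium is named, a rise or fall means higher or lower with isoproterenol than with IFN-gamma, and not a change from medium. In 2917 genes (29.0%) the 6 arrays of one group did not overlap the 6 of the other. The sign was the same in all 3 experiments for 4609 of the 4643 genes. Against medium, by contrast, isoproterenol changed 129 genes (1.28%), while IFN-gamma changed 4359 (43.3%). The median absolute log2 difference over genes tested was 0.192, 0.196 and 0.205 between isoproterenol and IFN-gamma in experiments 1, 2 and 3. Between IFN-gamma and medium it was 0.198, 0.172 and 0.206, and between isoproterenol and medium 0.092, 0.098 and 0.098. These contrasts share the isoproterenol, IFN-gamma and medium arrays, so that they are given side by side and not as independent results. In whole RNA from a culture, fewer cells that express a gene and less RNA per cell cannot be told apart.

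**Figure D1:**
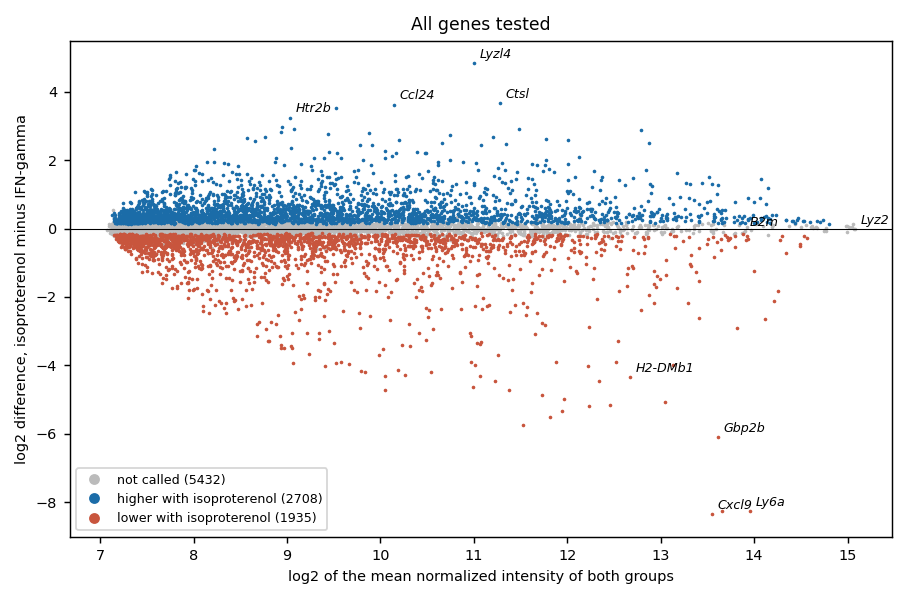
Each point is 1 of 10075 genes, with the log2 difference, isoproterenol minus IFN-gamma, against the log2 mean normalized intensity of both groups. Blue points were higher with isoproterenol (2708), red points were lower (1935), and grey points were not called. The lower side reaches -8.35 (Cxcl9, at background with isoproterenol and so uncertain in size) and the higher side 4.83 (Lyzl4).

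The genes that fell furthest were led by Cxcl9, Ly6a and Serpina3g, which isoproterenol-treated cells showed at or near background. Cxcl9, the chemokine that attracts activated T cells through Cxcr3, had intensities of 131.6, 139.1 and 144.5 (lowest, median and highest of 6) with isoproterenol, against 12723, 24670 and 31738 with IFN-gamma. No isoproterenol array was above the limit, so that Cxcl9 was at least 153.5-fold lower with isoproterenol, a bound taken on the intensities before background correction (adjusted p = 7.99e-13). Ly6a, the surface protein Sca-1, had 157.3, 170.8 and 196.5 with isoproterenol, against 30817, 31073 and 33574 with IFN-gamma, a log2 difference of -8.27 ± 0.09 (SE, adjusted p = 5.12e-13). The groups were far apart in both genes, without overlap. Serpina3g, an intracellular protease inhibitor, had 139.1, 147.3 and 175.3 with isoproterenol (above the limit on 2 of 6 arrays), against 23813, 25869 and 27089 with IFN-gamma, a log2 difference of -8.26 ± 0.18 that is uncertain in size. Gbp2b, a guanylate-binding protein of host defence, had 408.8, 425.4 and 443.1 with isoproterenol, against 23989, 24523 and 25228 with IFN-gamma, and a log2 difference of -6.11 ± 0.10 (adjusted p = 4.38e-12). Cxcl10, another Cxcr3 ligand, had 152.0, 160.9 and 178.1 with isoproterenol, against 2134, 5372 and 9895 with IFN-gamma. The IFN-gamma arrays spread more widely for Cxcl10 than for Gbp2b, and the lowest of them was replicate 2 of experiment 1, which was also the lowest for Cxcl9. The log2 difference of Cxcl10 was -5.74 ± 0.16 (adjusted p = 4.17e-10). Log2 differences are taken after a background correction with an offset of 50, so that a fold is larger than the ratio of the printed intensities. Array probes of the Gbp, Serpina3, Ly6 and H2 families may also read related transcripts.

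The promoters of 4 of these genes are shown because the study asked about transcriptional regulation. They run from 250 bases before to 50 after the transcription start, 5′ to 3′ on the gene's strand (RefSeq, GRCm38.p6), and capitals mark the motif matches. Ly6a had no entry.
Cxcl9, chr5:92328030-92328329, minus strand: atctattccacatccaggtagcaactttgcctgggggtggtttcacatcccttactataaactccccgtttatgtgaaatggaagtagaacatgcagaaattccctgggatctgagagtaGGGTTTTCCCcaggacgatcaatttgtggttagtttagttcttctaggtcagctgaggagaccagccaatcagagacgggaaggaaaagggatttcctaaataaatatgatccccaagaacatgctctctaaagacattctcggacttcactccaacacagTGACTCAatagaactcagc
Serpina3g, chr12:104235897-104236196, plus strand: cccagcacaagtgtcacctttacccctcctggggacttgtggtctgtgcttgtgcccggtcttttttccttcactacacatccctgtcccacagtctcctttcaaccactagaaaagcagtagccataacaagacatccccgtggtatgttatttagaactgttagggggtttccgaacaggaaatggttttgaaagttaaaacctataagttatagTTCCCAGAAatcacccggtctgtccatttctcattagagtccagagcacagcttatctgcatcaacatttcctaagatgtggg
Gbp2b, chr3:142594597-142594896, plus strand: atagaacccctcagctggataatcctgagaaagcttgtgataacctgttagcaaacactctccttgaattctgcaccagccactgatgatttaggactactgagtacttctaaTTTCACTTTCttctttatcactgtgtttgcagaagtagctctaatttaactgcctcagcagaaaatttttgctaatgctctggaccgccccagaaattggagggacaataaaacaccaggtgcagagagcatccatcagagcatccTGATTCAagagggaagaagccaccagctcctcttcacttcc
Cxcl10, chr5:92348840-92349139, minus strand: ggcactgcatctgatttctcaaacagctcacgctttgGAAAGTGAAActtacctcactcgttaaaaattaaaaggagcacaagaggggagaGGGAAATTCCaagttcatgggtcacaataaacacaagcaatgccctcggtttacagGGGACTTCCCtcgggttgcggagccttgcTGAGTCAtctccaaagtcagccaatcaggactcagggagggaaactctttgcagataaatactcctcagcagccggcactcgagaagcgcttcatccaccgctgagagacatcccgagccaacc

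Searched on both strands were ISRE (GAAANNGAAA), GAS (TTCNNNGAA), CRE (TGACGTCA), the lysosomal CLEAR element (TCACGTGA), the NF-kB site kappaB (GGGANNNNCC) and AP-1 (TGANTCA). Gbp2b and Cxcl10 each had an ISRE, 137 and 213 bases before the start. Serpina3g had a GAS 33 bases before it, and Cxcl9 a kappaB match 130 bases before it and an AP-1 match 31 bases after it. Gbp2b also had an AP-1 match 9 bases after the start, and Cxcl10 one 74 bases before it and a kappaB match 159 bases before it. In Cxcl10 the kappaB match 103 bases before the start reads on both strands, so that the matches overlap fully. An ISRE was found in 20.4% of the 103 promoters of genes at least 4-fold lower with isoproterenol, in 12.9% of the 334 promoters of genes at least 2-fold lower and in 2.92% of the 342 promoters of genes at least 2-fold higher, against 3.15% of the promoters of all genes tested and 3.44% of all promoters. For GAS the shares in these sets were 19.4%, 13.2% and 7.31%, against 7.10% and 8.30%. In 45 promoters of the genes at least 4-fold higher (31 genes matched), GAS was in 13.3% and ISRE in 0. A CRE was in 1.75% of the promoters of genes at least 2-fold higher, against 2.93% of all genes tested, and CLEAR in 1.75%, against 1.89%. The kappaB motif is short on fixed letters and was in 25.7% of the promoters of all genes tested, in 30.2% of those at least 2-fold lower and in 26.6% of those at least 2-fold higher. AP-1 matches were in 9.58% of the promoters of genes at least 2-fold lower and in 9.65% of those at least 2-fold higher, and in 18.4% of those at least 4-fold lower and 11.1% of those at least 4-fold higher, against 5.62% of all genes tested. A match shows that the letters are present in the window and is not evidence of binding.

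On the other side, Lyzl4, Ctsl and Ccl24 rose furthest. Lyzl4, a lysozyme-like protein known mainly from the male reproductive tract, had 3347, 3527 and 5149 with isoproterenol, against 150.3, 205.8 and 287.1 with IFN-gamma. Its log2 difference was 4.83 ± 0.16 (adjusted p = 1.09e-09), the largest rise in the comparison. Ctsl, the lysosomal cysteine protease cathepsin L, had 3996, 4590 and 4851 with isoproterenol, against 353.2, 431.6 and 468.4 with IFN-gamma, and was 12.7-fold higher (log2 difference 3.67 ± 0.10, adjusted p = 4.02e-10). Neither gene's groups overlapped. Ccl24, the eosinophil-attracting chemokine eotaxin-2, had 1504, 2041 and 2581 with isoproterenol, against 201.6, 229.0 and 249.7 with IFN-gamma, and was 12.3-fold higher (log2 difference 3.62 ± 0.12, adjusted p = 1.08e-09). All 3 lay between the groups in medium. The means there were 1903 ± 280 for Lyzl4, 2928 ± 618 for Ctsl and 949.7 ± 220.6 for Ccl24 (SD, n = 3). Against medium the log2 differences were 1.05, 0.67 and 1.17 with isoproterenol and -3.78, -3.00 and -2.45 with IFN-gamma, so that in each of the 3 the IFN-gamma side was the longer. Gas6, the ligand of the Tyro3, Axl and Mertk receptors, followed with 4364, 4825 and 5717 with isoproterenol, against 561.7, 736.8 and 918.4 with IFN-gamma. Its log2 difference was 2.92 ± 0.08 (adjusted p = 1.84e-10), whereas isoproterenol against medium did not pass the test, at 0.11 (adjusted p = 0.661).

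Some of the other large rises were of genes near background with IFN-gamma. Htr2b, the serotonin receptor 2B, had 820.8, 884.8 and 989.5 with isoproterenol, against 139.9, 149.8 and 182.2 with IFN-gamma, where 3 of 6 arrays were above the limit, and a log2 difference of 3.25 ± 0.12. Cd28, the costimulatory receptor of T cells, had 635.9, 787.9 and 1111 with isoproterenol, against 145.5, 163.6 and 186.0 with IFN-gamma (above the limit on 4 of 6 arrays), and a log2 difference of 2.98 ± 0.14. The size of both is uncertain for that reason. Rhoj, a small GTPase, was 7.49-fold higher, Trf, the iron carrier transferrin, 7.33-fold, Igfbp4, which binds insulin-like growth factors, 6.94-fold, and Rcan1, an inhibitor of calcineurin, 6.38-fold (above the limit on 5 of 6 IFN-gamma arrays). The other members of the 20 largest rises reached down to 2.56, and those of the 20 largest falls up to -4.30. The promoters of the 4 leading rises with an entry are shown for comparison with those above, with the same capitals. Lyzl4 has 3 annotated starts, of which the most upstream is printed, and Ccl24 had no entry.
Lyzl4, chr9:121642072-121642371, minus strand: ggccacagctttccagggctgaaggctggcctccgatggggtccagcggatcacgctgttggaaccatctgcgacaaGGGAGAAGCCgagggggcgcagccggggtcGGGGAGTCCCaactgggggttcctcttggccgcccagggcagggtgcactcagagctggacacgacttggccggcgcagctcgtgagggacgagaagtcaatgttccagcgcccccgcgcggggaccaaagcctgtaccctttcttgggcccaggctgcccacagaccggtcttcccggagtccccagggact
Ctsl, chr13:64370471-64370770, minus strand: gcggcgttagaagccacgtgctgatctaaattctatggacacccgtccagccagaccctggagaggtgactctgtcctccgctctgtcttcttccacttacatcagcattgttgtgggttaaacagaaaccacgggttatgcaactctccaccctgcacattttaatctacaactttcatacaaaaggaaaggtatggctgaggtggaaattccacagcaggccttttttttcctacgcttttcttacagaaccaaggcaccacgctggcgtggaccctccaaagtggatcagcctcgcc
Htr2b, chr1:86111931-86112230, minus strand: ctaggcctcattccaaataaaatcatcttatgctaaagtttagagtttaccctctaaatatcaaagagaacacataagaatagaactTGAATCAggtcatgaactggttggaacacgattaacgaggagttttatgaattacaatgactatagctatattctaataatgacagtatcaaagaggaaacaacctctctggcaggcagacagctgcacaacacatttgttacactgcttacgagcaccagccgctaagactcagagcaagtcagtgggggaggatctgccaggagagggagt
Gas6, chr8:13494486-13494785, minus strand: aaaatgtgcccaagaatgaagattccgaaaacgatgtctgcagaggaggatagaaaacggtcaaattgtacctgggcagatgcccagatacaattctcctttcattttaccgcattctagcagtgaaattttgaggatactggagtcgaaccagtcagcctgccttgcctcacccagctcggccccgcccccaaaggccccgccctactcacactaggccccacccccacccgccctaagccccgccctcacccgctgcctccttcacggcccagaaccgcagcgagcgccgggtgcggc
Neither Ctsl nor Gas6 held any of the searched motifs, Htr2b held an AP-1 match 163 bases before the start, and the Lyzl4 window held kappaB matches 173 and 143 bases before it.

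**Figure D2:**
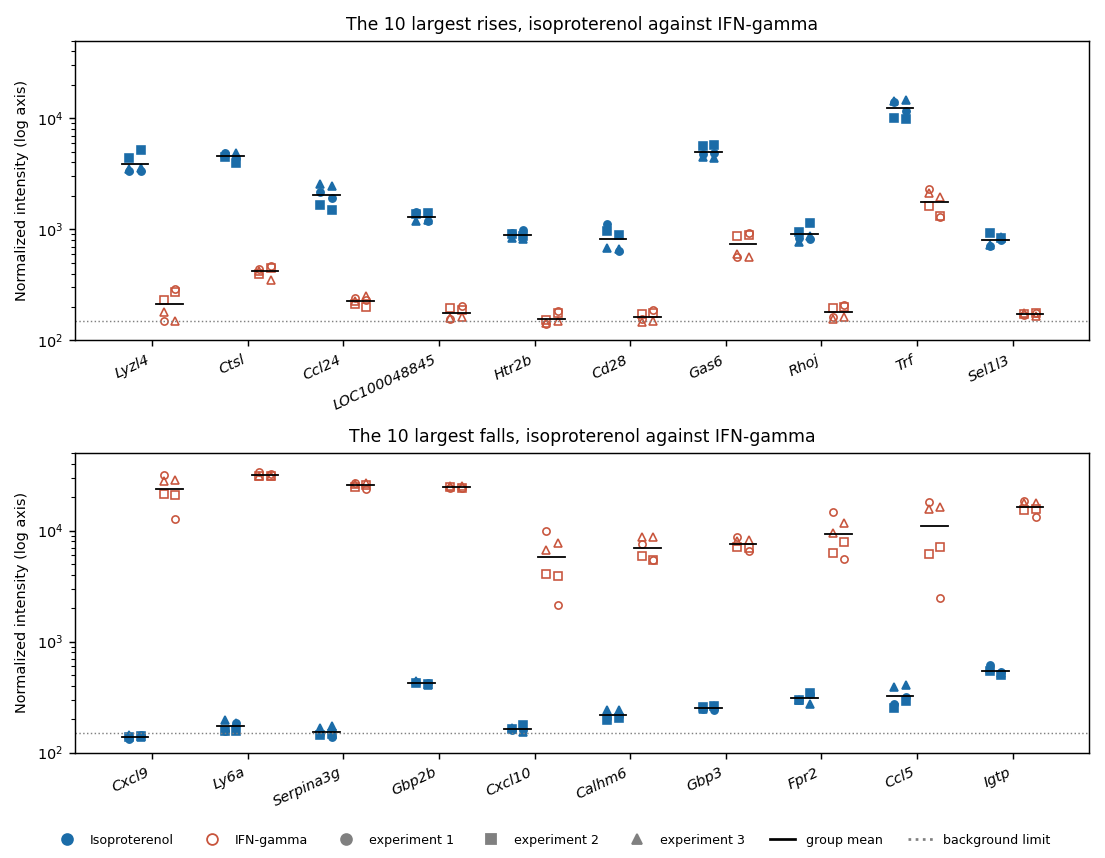
Normalized intensity (log axis) on each array of the 10 genes with the largest rise (top) and the 10 with the largest fall (bottom) with isoproterenol against IFN-gamma. Filled blue symbols are isoproterenol, open red symbols IFN-gamma, the symbol's shape gives the experiment, black bars are group means and the dotted line is the background limit of 149.3. No gene's groups overlap, and among the falls the IFN-gamma arrays of Cxcl10 and Ccl5 spread most, with Ccl5 between 2468 and 18115.

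Genes of the signalling chain of IFN-gamma were mostly lower with isoproterenol. Counts of this and later lists are to be read beside all genes, of which 26.9% were higher with isoproterenol and 19.2% lower. Of 24 tested receptors, kinases, STATs, IRFs and SOCS proteins, 15 were lower with isoproterenol and 5 higher, with a median log2 difference of -0.66. The rises were Ifngr1, Irf4 (0.49), Ifnar2 (0.26), Irf3 (0.23) and Stat4 (0.19), and without the experiment term 2 of the 5 were called. Of the receptor chains, Ifngr1 was higher with isoproterenol (0.64) and Ifngr2 did not pass the test, at 487.1 with isoproterenol and 444.9 with IFN-gamma (medians of 6, log2 difference 0.08, adjusted p = 0.619). The kinases Jak2 (-1.06) and Tyk2 (-0.84) fell and Jak1 did not pass (0.15, adjusted p = 0.122). Irf1, which carries the response to secondary targets, had 1049, 1231 and 1291 with isoproterenol, against 7955, 8248 and 9114 with IFN-gamma (-2.90 ± 0.11, adjusted p = 2.58e-09). The groups of Irf1 did not overlap, and isoproterenol against medium did not pass the test, at -0.27. Irf7, the amplifier of type I interferon genes, was lower by 4.72 and Batf2, an AP-1-family factor of macrophage activation, differed by -4.30. The feedback inhibitors Socs3 and Socs1 were also lower with isoproterenol, at -2.46 and -1.91, and so was Irf8 (-1.70), a factor of monocyte development.

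The effector genes of the pathway were lower with isoproterenol almost without exception. All 11 tested interferon-inducible GTPases, which attack vacuoles that hold pathogens, were lower, with a median log2 difference of -4.45. Igtp, an immunity-related GTPase also called Irgm3, had 504.7, 538.3 and 619.6 with isoproterenol, against 13174, 16693 and 18395 with IFN-gamma (-5.08 ± 0.07, adjusted p = 2.86e-12). Gbp5, which promotes inflammasome assembly, was above the limit on none of the isoproterenol arrays and was at least 12.7-fold lower. All 18 antiviral genes were lower, with a median of -2.28. Among them were Ifit2, which restricts viral translation, at -4.88 ± 0.16, Oasl1 at -4.19, Ifit3 at -4.00 and Rsad2, the antiviral enzyme viperin, at -3.89 ± 0.20. In 17 of these 18 genes the arrays did not overlap, against 29.0% of all genes. Over all genes 19.2% were lower with isoproterenol and the median was 0.03.

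Antigen presentation was lower on both arms. All 11 tested genes of MHC class II presentation were lower with isoproterenol, 9 of them at least 2-fold, with a median of -2.19. Ciita, the master regulator of class II genes, had 163.8, 206.9 and 232.3 with isoproterenol, against 1443, 1762 and 2186 with IFN-gamma (-3.71 ± 0.17, adjusted p = 1.23e-08). H2-DMb1, a chain of the peptide exchange factor, had 550.6, 634.3 and 882.7 with isoproterenol, against 9960, 12610 and 14142 with IFN-gamma (-4.34 ± 0.20, adjusted p = 1.11e-08). The class II chains H2-Eb1, H2-Ab1 and H2-Ea differed by -4.01, -3.28 and -2.90. No array of either group reached the range of the other in these genes. Of 15 genes of MHC class I and peptide loading, 14 were lower, all at least 2-fold, with a median of -1.83. Tap1, a subunit of the peptide transporter, had 251.5, 270.0 and 299.3 with isoproterenol, against 1971, 2295 and 2504 with IFN-gamma (-3.44 ± 0.07, adjusted p = 3.22e-11). Nlrc5, the transactivator of class I genes, differed by -2.99 and Psmb8, an immunoproteasome subunit, by -2.26. The exception was B2m, the invariant light chain, with 14128, 14628 and 15339 with isoproterenol, against 14694, 16008 and 16313 with IFN-gamma (-0.10 ± 0.05, adjusted p = 0.167), where the arrays overlapped. It was called where arrays were not averaged.

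**Figure D3:**
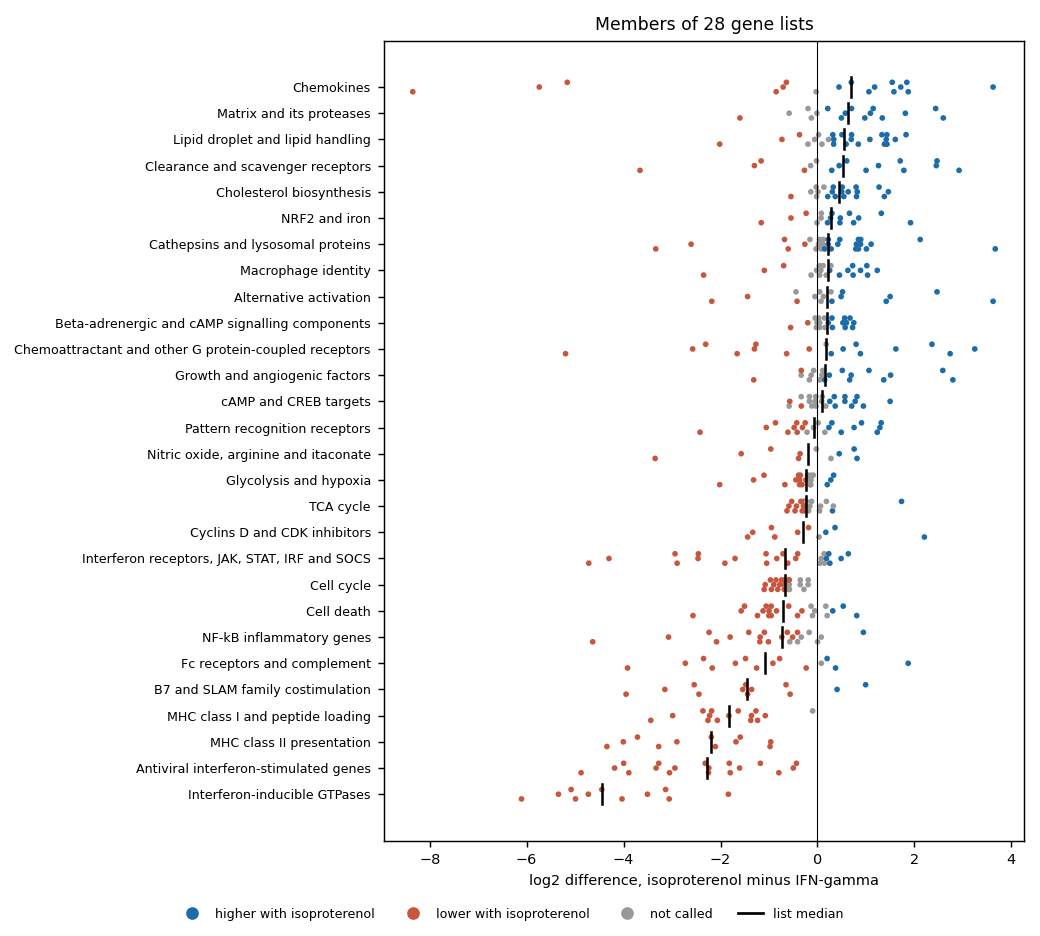
Log2 difference, isoproterenol minus IFN-gamma, of each tested member of 28 gene lists, ordered by the list median (black bar). Blue points were higher with isoproterenol, red points lower and grey points not called. The interferon-inducible GTPases lie lowest (median -4.45) and the chemokines have the highest median (0.70) although they also hold 3 of the largest falls.

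Chemokines moved both ways. Of 17 tested, 6 were lower with isoproterenol and 10 higher (19.2% and 26.9% over all genes), with a median of 0.70. Beside Cxcl9 and Cxcl10, the T cell and monocyte attractant Ccl5 fell, with 253.9, 303.6 and 406.3 with isoproterenol, against 2468, 11332 and 18115 with IFN-gamma (-5.16 ± 0.29, adjusted p = 8.05e-08). The monocyte attractants Ccl2 and Ccl7 were lower by less, at -0.85 and -0.64. Without the experiment term, 3 of the 6 falls were called. The rises included the inflammatory attractants Ccl3 (1.87), Cxcl1 (1.72) and Cxcl2 (1.06). Pf4, or Cxcl4, known from platelets, had 3649, 5714 and 6859 with isoproterenol, against 1254, 1522 and 1997 with IFN-gamma (1.84 ± 0.16, adjusted p = 2.72e-06). Its neighbour in the family Ppbp, the precursor of neutrophil-activating peptides, had 220.3, 270.9 and 414.4 with isoproterenol and was above the limit on none of the IFN-gamma arrays, at least a 1.88-fold difference. Neither gene's arrays overlapped.

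Receptors split evenly, with 8 of 17 tested chemoattractant and other G protein-coupled receptors lower with isoproterenol and 8 higher. Over all genes the shares were 19.2% and 26.9%. Fpr2, a receptor for formylated bacterial peptides, had 274.5, 299.1 and 342.5 with isoproterenol, against 5566, 8752 and 14836 with IFN-gamma (-5.20 ± 0.21, adjusted p = 4.16e-09). Cxcr4, the receptor of Cxcl12 that holds cells in bone marrow, had 2142, 3104 and 3558 with isoproterenol, against 448.8, 478.2 and 550.3 with IFN-gamma (2.74 ± 0.09, adjusted p = 1.41e-09). Gpr183, the oxysterol receptor, and C5ar1, the receptor of complement C5a, were higher by 2.36 and 1.62. Cx3cr1, the fractalkine receptor, was close to background on both sides and did not pass (0.18, adjusted p = 0.346).

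Inflammatory genes under NF-kB were mostly lower with isoproterenol, 14 of 21 tested, with 1 higher and a median of -0.74. The share lower over all genes was 19.2%. Within slide 1 alone, 6 of the 14 were called. Icam1, the adhesion ligand of leukocyte integrins, had 685.6, 716.5 and 806.5 with isoproterenol, against 4372, 5774 and 6941 with IFN-gamma (-3.07 ± 0.07, adjusted p = 6.50e-11). Tnf had 268.5, 288.6 and 305.3 with isoproterenol, against 608.0, 960.3 and 1856 with IFN-gamma (-2.08 ± 0.14, adjusted p = 3.71e-07). Both sets of arrays were apart. Saa3, an acute-phase protein, differed by -4.64 ± 0.35, with IFN-gamma arrays between 538.1 and 6556. Il1b, in contrast, had 1428, 1665 and 1915 with isoproterenol, inside the range of 926.6 to 4926 with IFN-gamma, and did not pass (-0.57, adjusted p = 0.117). It was called in 3 of the alternatives, among them the fit without replicate 2 of IFN-gamma experiment 1. The rise was Il1rn, the interleukin-1 receptor antagonist, with 1373, 1605 and 1784 with isoproterenol, against 760.9, 863.7 and 990.9 with IFN-gamma (0.95 ± 0.07, adjusted p = 4.33e-07). It also exceeded medium with isoproterenol (0.77, adjusted p = 0.000415) and did not pass the test with IFN-gamma (-0.18, adjusted p = 0.0506).

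Of 21 sensors of microbial products, 8 were higher with isoproterenol and 9 were lower, around a median of -0.08. Among all genes the shares were 26.9% and 19.2%. Within slide 1, 5 of the 9 falls were called. The intracellular sensor Nod1 was lower (-2.42 ± 0.11). The lectin Clec4d, the single-stranded RNA receptor Tlr7 and the lipopolysaccharide co-receptor Cd14 were higher, at 1.31, 1.29 and 1.23. Tlr4, the lipopolysaccharide receptor itself, had a median of 418.1 with isoproterenol and 414.1 with IFN-gamma, with overlapping arrays (0.01, adjusted p = 0.926). Costimulatory molecules of the B7 and SLAM families were lower in 10 of 12, with a median of -1.46. Cd40, the receptor of T cell help, was above the limit on 1 of 6 isoproterenol arrays, with a median of 148.0 there and of 1368 with IFN-gamma (-3.95 ± 0.17). Slamf8, a regulator of phagocyte function, had 408.7, 458.4 and 511.6 with isoproterenol, against 2998, 3714 and 3984 with IFN-gamma (-3.15 ± 0.05, adjusted p = 4.38e-12). The coinhibitory ligands Cd274 (PD-L1) and Pdcd1lg2 (PD-L2) were lower as well, at -1.54 and -1.44, while Cd276 (0.99) and Cd80 (0.40) were higher.

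Fc receptors and complement had 10 of 14 members lower, against 19.2% of all genes, with a median of -1.09. C3, the central complement protein, had 418.4, 466.2 and 526.3 with isoproterenol, against 2392, 7139 and 10671 with IFN-gamma (-3.92 ± 0.27, adjusted p = 3.92e-07). Fcgr1, the high-affinity activating IgG receptor, was lower (-2.35), whereas Fcgr2b, the inhibitory IgG receptor, was higher (1.87). The subunits of C1q, the starter of the classical pathway, were lower together, C1qb by -1.69, C1qa by -1.48 and C1qc by -0.92. In arginine and nitric oxide metabolism, Ass1, which remakes arginine from citrulline, had 384.3, 429.7 and 454.8 with isoproterenol, against 2443, 3907 and 4571 with IFN-gamma (-3.35 ± 0.13, adjusted p = 3.98e-09). Nos2, the inducible nitric oxide synthase, had 146.9, 150.1 and 165.9 with isoproterenol (above the limit on 4 of 6 arrays), against 183.6, 328.9 and 534.2 with IFN-gamma (-1.57 ± 0.12). It was not called within slide 1. Arg1, the competing arginase, was above the limit on 4 isoproterenol arrays and on none with IFN-gamma, and did not pass (0.28, adjusted p = 0.196), although 3 of the alternatives called it. Over the list, 5 of 10 were lower and 3 higher.

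Lysosomal proteases did not move as a block. Of 28 cathepsins and lysosomal proteins, 16 were higher with isoproterenol and 5 lower, with a median of 0.22. Over all genes 26.9% were higher and 19.2% lower, so that the share of falls in this list was near that of all genes. Cathepsin K (Ctsk), a strong collagenase, followed Ctsl, with 1553, 1822 and 1916 with isoproterenol, against 391.6, 443.3 and 592.7 with IFN-gamma (2.12 ± 0.07, adjusted p = 1.12e-09). Cathepsin C (Ctsc), which activates granule proteases, went the other way, with 177.7, 181.5 and 202.9 with isoproterenol, against 1207, 1250 and 1368 with IFN-gamma (-3.34 ± 0.08, adjusted p = 7.10e-11). Cathepsin H (Ctsh), an aminopeptidase, had 3009, 3087 and 3334 with isoproterenol, against 15965, 18731 and 21679 with IFN-gamma (-2.61 ± 0.06). These 4 proteases were each without overlap. Cathepsin Z (0.02) and the activator protein Psap (-0.03) did not pass. Smaller rises came from the membrane glycoprotein Cd68 (0.89), the tripeptidyl peptidase Tpp1 (1.11) and legumain (Lgmn, 0.85).

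Matrix and growth factor genes were mostly higher. Among all genes 26.9% were higher and 19.2% lower. Of 16 genes of matrix and its proteases, 11 were higher with isoproterenol and 1 lower, with a median of 0.64, and 6 of the 11 were called within slide 1. Mmp12, macrophage elastase, had 5695, 7226 and 7692 with isoproterenol, against 946.9, 1076 and 1817 with IFN-gamma (2.60 ± 0.17, adjusted p = 2.21e-07). Timp2, an inhibitor of matrix metalloproteinases, rose with it, with 3237, 3563 and 4159 with isoproterenol, against 620.5, 689.3 and 945.6 with IFN-gamma (2.44 ± 0.09). Against medium, isoproterenol passed the test in neither Mmp12 (0.08) nor Timp2 (0.01). Tgfbi, an adhesion protein induced by TGF-beta, was the fall (-1.60 ± 0.17). Of 19 growth and angiogenic factors, 10 were higher and 2 lower, with a median of 0.15, and 6 of the 10 were called within slide 1. Pdgfa and Pdgfb, chains of platelet-derived growth factor, were higher with isoproterenol by 2.59 and 1.37 and Igf1 by 1.51. Against medium these 3 stood at 0.36, -0.06 and -0.20 with isoproterenol, and at -2.2, -1.4 and -1.7 with IFN-gamma. Vegfa did not pass, with 309.2 to 441.3 with isoproterenol and 293.4 to 626.9 with IFN-gamma (-0.34, adjusted p = 0.0936), and 6 alternatives called it lower.

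Uptake and lipid genes rose on balance too, beside 26.9% higher and 19.2% lower among all genes. Of 16 clearance and scavenger genes, 10 were higher with isoproterenol and 4 lower, with a median of 0.53, and 6 of the 10 were called within slide 1. Mrc1, the mannose receptor, had 3188, 3793 and 6033 with isoproterenol, against 398.0, 924.5 and 1471 with IFN-gamma (2.47 ± 0.19, adjusted p = 1.11e-06). Stab1, a scavenger receptor of endocytosis, had 1217, 1439 and 1650 with isoproterenol, against 249.8, 332.0 and 385.4 with IFN-gamma (2.45 ± 0.08). The ligand and its receptors parted in 1 pathway, since Gas6 was higher and its receptors Mertk (-1.30) and Axl (-1.16) were lower. Timd4, a receptor for phosphatidylserine on dying cells, was above the limit on 2 of 6 isoproterenol arrays, and differed by -3.66 ± 0.08.

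Of 20 genes of cholesterol synthesis and its control, 14 were higher and 1 lower, with a median of 0.44, and 9 of the 14 were called within slide 1. Sqle, which makes squalene epoxide, had 815.8, 971.9 and 1419 with isoproterenol, against 342.5, 414.9 and 574.9 with IFN-gamma (1.46 ± 0.09, adjusted p = 1.20e-07). Cyp51, the lanosterol demethylase, and Hsd17b7, a later sterol enzyme, were higher by 1.38 and 1.27. In all 3 the arrays of the groups did not overlap, and isoproterenol against medium did not pass the test (0.10, 0.13 and 0.18). Pmvk, phosphomevalonate kinase, was the fall (-0.55). Of 24 genes of lipid handling, 16 were higher and 3 lower, with a median of 0.55. Apoe, the carrier of cholesterol out of macrophages, had 22826, 24609 and 27523 with isoproterenol, against 6311, 9448 and 13228 with IFN-gamma (1.44 ± 0.08, adjusted p = 6.79e-08). Apoc2, the cofactor of lipoprotein lipase, was higher by 1.83, whereas Lpl, that lipase, did not pass (0.02). Acsl1, which activates long-chain fatty acids, was lower (-2.02 ± 0.18), and was not called within slide 1.

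Genes of energy metabolism differed by small amounts, mostly lower with isoproterenol. Of 21 genes of glycolysis and hypoxia, 13 were lower and 3 higher (median -0.24), and of 21 of the TCA cycle, 11 were lower and 2 higher (median -0.24). Within slide 1, 8 of the 13 and 7 of the 11 were called, and without experiment 1, 7 of the 11. Pfkp, the platelet form of phosphofructokinase, had 503.5, 575.9 and 601.3 with isoproterenol, against 1718, 2162 and 2276 with IFN-gamma (-2.02 ± 0.07, adjusted p = 1.15e-09). Hif1a, the hypoxia-inducible factor, was lower by -1.32 ± 0.11 and Hk3, a hexokinase of myeloid cells, by -1.10 ± 0.06. Idh1, the cytosolic isocitrate dehydrogenase, was the exception in size, with 5008, 5323 and 6150 with isoproterenol, against 1459, 1729 and 1889 with IFN-gamma (1.74 ± 0.12, adjusted p = 3.17e-07). Of 16 NRF2 targets and iron genes, 10 were higher and 3 lower, with a median of 0.29, against 26.9% higher and 19.2% lower over all genes. Tfrc, the transferrin receptor, had 2829, 3074 and 3784 with isoproterenol, against 586.5, 903.3 and 1467 with IFN-gamma (1.92 ± 0.16). Slc40a1, the iron exporter ferroportin, was higher by 1.32 ± 0.08, and Sod2, the mitochondrial superoxide dismutase, was lower by -1.16 ± 0.10. Within slide 1, 4 of the 10 were called.

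The signalling path of isoproterenol itself showed moderate differences between the activators. Of 20 components of beta-adrenergic and cAMP signalling, 10 were higher with isoproterenol and 2 lower, with a median of 0.19. Over all genes 26.9% were higher and 19.2% lower. The receptors Adrb1 (-0.05) and Adrb3 (0.03) did not pass. The adenylyl cyclases Adcy9 and Adcy7 were higher by 0.75 and 0.67 and the regulatory subunit Prkar1a of protein kinase A by 0.60. Against medium, Adcy9, Adcy7 and Prkar1a stood at 0.10, 0.05 and 0.15 with isoproterenol, and at -0.65, -0.62 and -0.45 with IFN-gamma. In the test against a fold of 1.5, none of the 10 higher components was called. Of 23 targets of cAMP and CREB, 10 were higher and 2 lower, with a median of 0.10. Egr2, an early-response factor, had 1824, 2238 and 2562 with isoproterenol, against 655.3, 785.7 and 1197 with IFN-gamma (1.5 ± 0.11, adjusted p = 8.06e-07). Isoproterenol against medium did not pass the test for Egr2 (0.09). Among other early CREB targets, Jun (0.78), Junb (0.57), Atf3 (0.57), Per1 (0.37) and Dusp1 (0.35) were higher. Fos (0.10), Nr4a2 (-0.05) and Egr1 (-0.12) did not pass, and Crem, the inducible repressor, was lower (-0.57). Against medium, Jun stood at 0.16 with isoproterenol and -0.62 with IFN-gamma, and Atf3 at -0.04 and -0.61. Junb stood at 0.45 and -0.11, Per1 at 0.33 and -0.04, and Dusp1 at 0.76 and 0.41. Fos stood at 0.91 and 0.81, Nr4a2 at 0.24 and 0.29, Egr1 at 0.07 and 0.18, and Crem at 0.33 and 0.90. Without experiment 2, or within slide 1, 6 of the 10 rises against IFN-gamma were called.

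**Figure D4:**
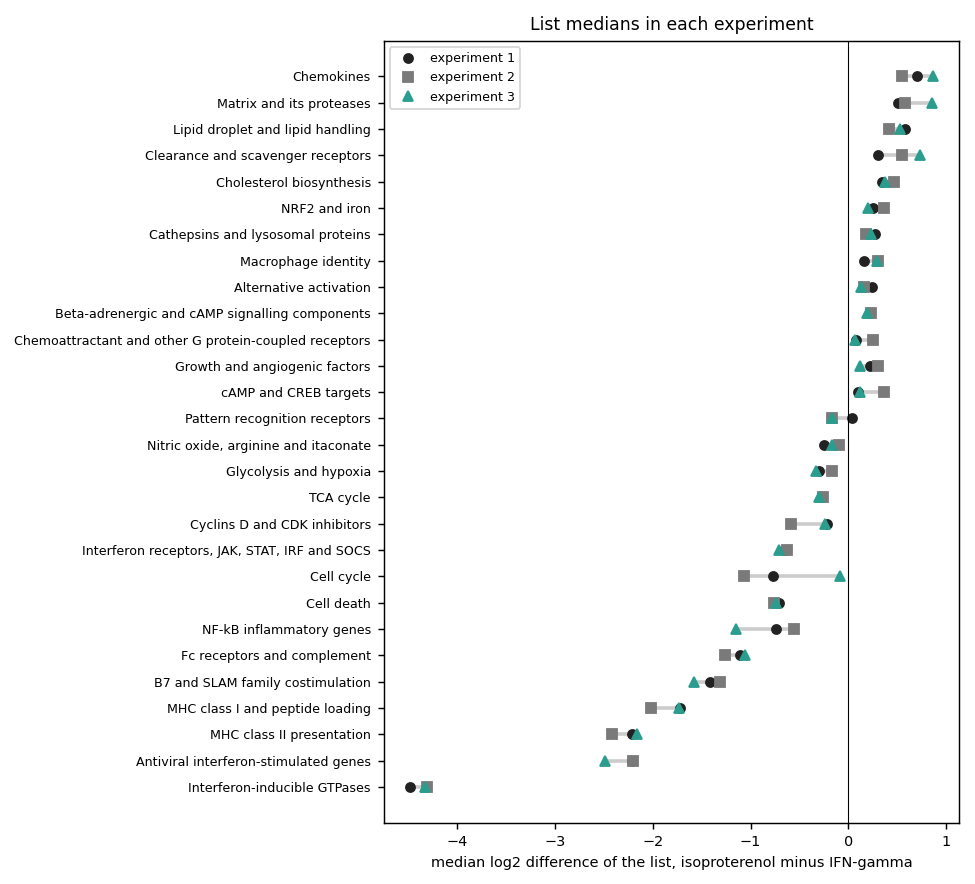
Median log2 difference, isoproterenol minus IFN-gamma, of each of the 28 gene lists in each experiment. Circles, squares and triangles are experiments 1, 2 and 3, and grey lines join them. Most lists keep within a narrow range, and the cell cycle list spreads most, at -0.77, -1.07 and -0.09.

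Programs of cell death and division were lower as counts. Most calls of the second were lost without experiment 2, or without replicate 2 of IFN-gamma experiment 1. Of 22 cell death genes, 14 were lower and 3 higher (19.2% and 26.9% over all genes), with a median of -0.72. Mlkl, the executor of necroptosis, had 282.3, 303.7 and 404.2 with isoproterenol, against 1256, 1578 and 1834 with IFN-gamma (-2.57 ± 0.10, adjusted p = 4.69e-09). Casp4, the sensor caspase of lipopolysaccharide, was lower by -1.57. Of 24 cell cycle genes, 15 were lower and none higher, with a median of -0.67. In only 1 of the 24, Ccne1, did the arrays not overlap, against 29.0% of all genes. Birc5 (-0.97), the mitotic protein survivin, had 225.8 and 1920 on the IFN-gamma arrays of experiment 1, against 292.4 and 382.6 with isoproterenol in that experiment. The partner arrays of IFN-gamma thus lay on either side of the isoproterenol arrays. On the IFN-gamma arrays of the other experiments Birc5 had 1820 and 1873 in experiment 2, and 423.9 and 405.9 in experiment 3. Without replicate 2 of IFN-gamma experiment 1, 4 of the 15 were called. Without experiment 1, 2 or 3 the numbers were 8, 1 and 24, within slide 1 it was 1, with slide and experiment as blocks 8, and with no experiment term 1. Within slide 4, 6 were lower and 2 higher. Ccnd1, cyclin D1, was lower on all arrays, with 941.6, 1184 and 1970 with isoproterenol, against 2055, 3602 and 5902 with IFN-gamma (-1.44 ± 0.17). Cdkn1c, the cell cycle inhibitor p57, had 664.6, 1334 and 1424 with isoproterenol, against 219.2, 324.2 and 388.2 with IFN-gamma (2.21 ± 0.10, adjusted p = 1.64e-08).

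Of 20 genes of macrophage identity, 9 were higher with isoproterenol and 3 lower, with a median of 0.22. Lyz2, lysozyme, Spi1, the lineage factor PU.1, and Adgre1, the F4/80 antigen, did not pass (-0.02, 0.05 and 0.04). Csf1r, the receptor of the growth factor that maintains macrophages, had 2761, 3427 and 3581 with isoproterenol, against 1805, 1971 and 2139 with IFN-gamma (0.74, adjusted p = 9.22e-05). Itgam, the integrin CD11b, was higher by 1.03 ± 0.06. Markers of alternative activation did not follow each other, with 7 of 16 higher and 3 lower. Over all genes 26.9% were higher and 19.2% lower, so that the share of falls in these markers was near that of all genes. Beside Ccl24, Mrc1 and Egr2, Pparg, a lipid-sensing nuclear receptor, was higher (1.42), while Tgm2, transglutaminase 2, was lower (-2.18 ± 0.11). The classical mouse M2 genes Chil3 and Retnla were not above the limit on any isoproterenol array, and on 1 and none of the IFN-gamma arrays.

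Markers of other cell types were mostly too dim to test. Those tested were 5 for T and NK cells, 4 for B cells, 9 for neutrophils, 3 for mast cells, basophils and eosinophils, 4 for dendritic cells, 2 for platelets, 3 for erythroid cells, 2 for fibroblasts and stroma and 8 for osteoclasts. The intensity of the T and NK cell list, summed over its members in the table, was 1838 to 1918 with isoproterenol and 1843 to 1927 with IFN-gamma, with Cd3d at or under 158.1 on all 12 arrays. Of the 5 tested, Cd2 (0.62) and Prf1 (0.20) were higher and Lck (-0.53) lower. Prf1 lost the call without experiment 1 or experiment 2 and within either slide. No marker of erythroid cells or of fibroblasts and stroma was called, and their sums were 966.7 to 1012 and 1390 to 1437 with isoproterenol, against 970.1 to 1000 and 1416 to 1453 with IFN-gamma. The neutrophil list summed to 2959 to 3713 with isoproterenol and 4753 to 6095 with IFN-gamma, with S100a8 lower with isoproterenol (-1.5) and S100a9, Mpo and Ctsg higher (0.50, 0.49 and 0.34). Within slide 1 none of these 3 rises was called, and Ctsg lost the call in most settings that left out an experiment or changed the block. The B cell list summed to 2254 to 2563 with isoproterenol and 1544 to 1707 with IFN-gamma, with Blnk higher (1.5), an adaptor that macrophages also use. For platelets the sums were 1267 to 1400 with isoproterenol and 1004 to 1146 with IFN-gamma. There Treml1 was higher (1.41 ± 0.16) and Tubb1 was not called, at 134.2 to 153.2 with isoproterenol, and this stands beside the rises of Pf4 and Ppbp, with its part in them not tested. Of the mast cell, basophil and eosinophil markers, which summed to 1129 to 1246 with isoproterenol and 1098 to 1158 with IFN-gamma, 1 was higher and none lower. Dendritic cell markers summed to 1528 to 1555 with isoproterenol and 1762 to 1980 with IFN-gamma, with Batf3 lower (-1.49). Osteoclast markers summed to 3105 to 3518 with isoproterenol and 1933 to 2098 with IFN-gamma, with 1 of 8 higher, which was Ctsk, and 2 lower.

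Isoproterenol also departed from medium in some of the genes that set it apart from IFN-gamma. Cytip, a regulator of integrin adhesion and a cAMP-responsive gene, had 5962, 6848 and 7219 with isoproterenol, against 2628, 3788 and 5789 with IFN-gamma, and averaged 2540 ± 954 in medium (SD, n = 3). Its log2 difference from medium was 1.49 ± 0.19 with isoproterenol (adjusted p = 0.00428) and 0.67 with IFN-gamma (adjusted p = 0.0156), so that both activators raised it. Between the activators it was 0.82 ± 0.19 (adjusted p = 0.00485), and it was not called without experiment 2. Hilpda, a lipid droplet protein that inhibits triglyceride lipase, had 2078, 2156 and 2263 with isoproterenol, against 578.1, 922.5 and 1087 with IFN-gamma and 906.0 ± 46.7 in medium. Against medium it rose with isoproterenol (1.32 ± 0.14, adjusted p = 0.00149) and did not pass with IFN-gamma (-0.11, adjusted p = 0.581). None of its isoproterenol arrays overlapped the IFN-gamma arrays.

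The genes named here were taken among those in which isoproterenol differed from both medium and IFN-gamma, a choice that favours values on opposite sides of medium. Cav1, the coat protein of caveolae, stood at 1.06 ± 0.06 against medium with isoproterenol (adjusted p = 2.40e-05) and at -0.54 with IFN-gamma, and Col18a1, a basement membrane collagen, at 1.02 ± 0.08 and -0.79. For Pf4 the values were 1.37 and -0.48, for Cd28 0.85 and -2.13, and for Sel1l3 0.84 and -1.99. A further gene, Dnah2, a dynein chain listed on the array under an older clone name, stood at 1.16 and -0.40, of which the second did not pass. The opposite pattern, below medium with isoproterenol and above it with IFN-gamma, was seen in H2-Ea, H2-DMb1 and Slamf9. Of the other class II chains, H2-Eb1 (-1.09, adjusted p = 0.0617) and H2-Ab1 (-1.07, adjusted p = 0.0650) did not pass against medium with isoproterenol. H2-Ea stood at -0.99 ± 0.19 with isoproterenol (adjusted p = 0.0316) and at 1.91 with IFN-gamma, H2-DMb1 at -0.95 and 3.40, and Slamf9 at -0.76 and 1.78. In medium H2-Ea varied between experiments, at 7208 ± 2965. In a further group both activators lay below medium. Cdkn1c stood at -0.61 with isoproterenol and -2.82 with IFN-gamma, Gpx3, the secreted glutathione peroxidase, at -0.71 and -2.0, and P2ry1, an ADP receptor, at -0.51 and -1.52. The number of genes changed against medium was less stable than the main comparison, with 36 in place of 129 without the experiment term and between 12 and 38 when an experiment was left out.

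**Figure D5:**
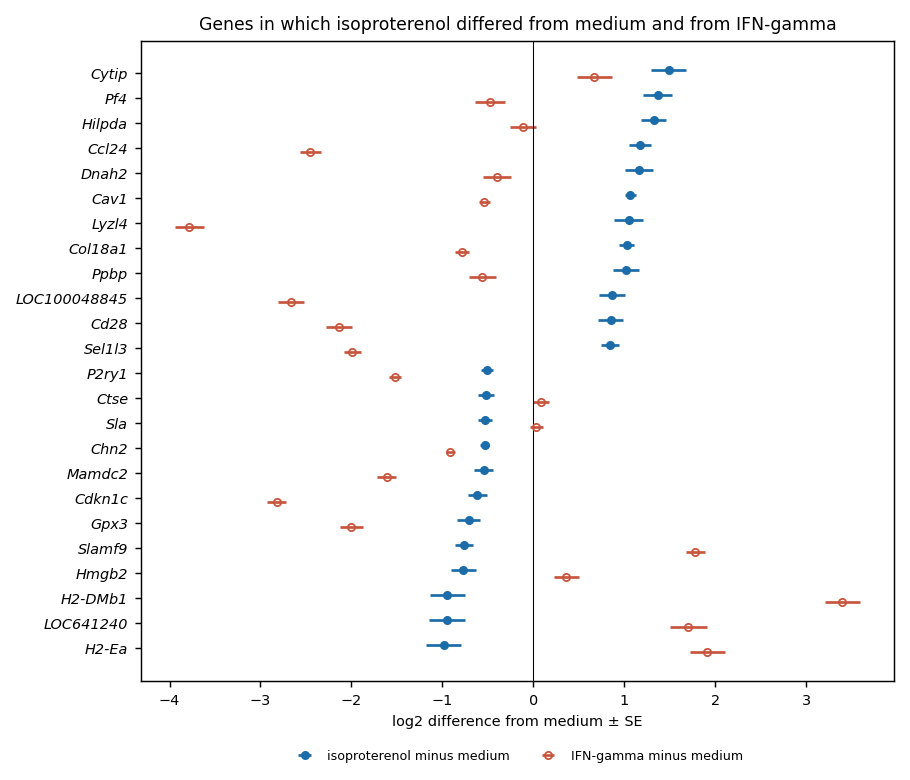
Log2 difference from medium (± SE of the fit, n = 3 experiments) with isoproterenol (filled blue) and with IFN-gamma (open red), for the 12 genes furthest above and the 12 furthest below medium among genes in which isoproterenol differed from both. Cytip is above medium with both activators, Ccl24 and Lyzl4 lie on opposite sides of 0, and Cdkn1c, Gpx3, Mamdc2, Chn2 and P2ry1 lie below medium with both.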

How the data were processed

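RNA of bone marrow-derived macrophages was hybridised to Illumina MouseRef-8 bead arrays. GenomeStudio is named in the submitters' processing notes, without a version. The authors deposited linear intensities in 2 tables, non-normalized values of 25697 probes and normalized values of 18132 genes. The deposited normalized intensities have array medians of 150.02 to 150.38, so that they were already on a common scale. Control probes, detection p-values and probe-to-gene assignments were not used here. Depth does not apply to arrays, and the 3 experiments limit the precision.

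From the normalized intensities, background was corrected with normexp of limma 3.58.1 (R 4.3.3, offset 50) and log2 was taken. The background mode was 137.3, and genes above 149.3 (mode plus 1.645 SD, the SD read below the mode) on at least 6 of 24 arrays were tested. Partner arrays (2 per activator and experiment) were averaged. A limma model with group and experiment as a block was fitted to the 12 means (residual df 6, prior df 4.96), with Benjamini-Hochberg adjustment over 10075 genes and a threshold of 0.05. All p-values are two-sided limma values. They rest on the spread of the 12 means that is left after group and experiment, pooled over all groups. Deviations of isoproterenol and IFN-gamma from their group means correlated within experiments at r = 0.24, 0.51 and 0.40, and the experiment number in the labels gives the pairing. A gene above the limit on no array of a group has its fold given as a lower bound, the other group's mean normalized intensity (log2, no background correction) over the limit. Names were updated through RefSeq genes, with 16988 matched and 1144 kept as listed. The fit was tested on simulated data.

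Genes were named by rule: the 20 called genes that rose most and the 20 that fell most with 1 sign in 3 experiments, up to 4 called and up to 2 uncalled members of each of 37 lists plus the largest uncalled difference, Lyzl4, Ctsl and Ccl24, and the 12 genes furthest above and below medium in each direction. Further list members are given with log2 differences. The genes, lists and tests were chosen with earlier results of these data known. Alternatives covered the background step, the dim-gene filter, the samples in the fit, the block, averaging, empirical Bayes settings, a minimum fold, slides, probes and single arrays or experiments left out. Some genes are not reported here by name and stay in the counts of all genes and lists.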

Additional observations from a re-analysis of the deposited data

Results flagged for a closer look

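Among 371 groups of 6 arrays of named genes, 10 held an array that stood apart from the other 5 by more than Dixon's critical value for its gap over the range. Chance would flag about 1 in 20 groups of independent values, and the 10 of 371 were fewer than that. Partner arrays are not known to be independent, so that this rate is only a guide. Of the 10, 4 fell on replicate 2 of IFN-gamma experiment 1, which was low each time. Irf7 had 2245.7 there, against 4518.7 to 6506.3 on the other IFN-gamma arrays, and the gene listed as LOC100038882 had 5135.0, against 9205.6 to 11650.4. Ifit3 had 2531.4 (others 3832.7 to 4454.7) and Batf3 468.2 (others 603.5 to 683.7). The calls of these 4 genes held without that array. With isoproterenol, Saa3 was high at 212.2 and Acsl1 low at 243.1 on replicate 1 of experiment 3. Tapbpl was high at 255.8, Cgas high at 170.7 and Col18a1 low at 314.1 on replicate 1 of experiment 1. Nr1h3, a liver X receptor, was low at 342.9 on replicate 2 of experiment 1.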

How the results depend on the processing

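The number of genes called between isoproterenol and IFN-gamma was 4643, and lay between 3576 and 5229 under all gene-level alternatives but 2. A test against a fold of 1.5 called 836 (405 higher, 431 lower), and slide 1 alone, with 2 arrays a group, 2386 (1397 higher, 989 lower). The first asks for a minimum size. Slide 4 alone, also with 2 arrays a group, gave 3869, and why slide 1 gave fewer was not tested. Fits within a slide took the partner arrays of 1 experiment as replicates. Slide and experiment as blocks gave 4755. On non-normalized probes 6088 of 15092 were called. With no replicate block, that is without the experiment pairing, 3890 genes were called, 3889 of them shared. Leaving out an experiment gave 3576 to 4032 and a single array 4203 to 4618. No gene called in the main setting and in an alternative at gene level had the opposite sign there. Isoproterenol against medium, with 129 genes, gave 36 with no replicate block and 12 to 38 with an experiment left out (38 without experiment 1, 12 without experiment 2, 38 without experiment 3). The cause was not tested. Mcm2 (0.51) and Mcm6 (0.28), not called in the main setting, reversed sign within slide 4, where the cause was not tested. Of the 153 named genes called, 29 lost the call in the test against a fold of 1.5, 16 within slide 1 and at most 9 under each of the other gene-level alternatives. Low signal limits genes near 149.3, where folds are uncertain in size.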
